A study of Rattus norvegicus with 16 samples.

Results

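The major histocompatibility region of the rat, on chromosome 20, was examined gene by gene in the abdominal wall around adhesive and non-adhesive implants. Its genes were chosen by position and by total count. A gene entered when its lowest start in the count files lay from 1000000 to 5500000 on chromosome 20 and its raw counts over the 16 libraries summed to at least 160, and 146 of the 32552 genes in the files did so. The window held 320 genes in all, of which 174 fell under the minimum and 70 had 0 counts in every library. The genes just inside the minimum had sums of 180 (ENSRNOG00000029001) and 194 (Rnf39), and those just outside had sums of 137 (ENSRNOG00000059825) and 158 (Atp6v1g2). Genes within the window were selected on position and on this sum, which uses no difference between groups. The region itself was chosen with earlier results of these data known.

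The tissue came from the abdominal wall of Sprague Dawley rats aged 12 weeks, all labelled as female. The adhesive implant was a polyurethane mock device carrying a bioadhesive layer that bonds to wet tissue, and the non-adhesive implant was the same construct with its bonding capacity used up by swelling in saline, so that sutures at its corners held it in place. Sutures are therefore part of every difference between implants. Tissue was taken at both implants on day 3 and on day 14, giving 4 groups of 4 libraries. No label ties a library to an animal, so the p-values measure only the spread between these samples, which may in part be technical. The mRNA was sequenced from whole tissue, in which fewer cells of a type and less RNA per cell cannot be told apart.

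The major histocompatibility complex is a gene-dense stretch of the genome that carries the machinery of antigen presentation. Class I molecules, displayed by nearly all nucleated cells, present peptides cut by the proteasome, including the interferon-inducible subunits Psmb8 and Psmb9, and carried into the endoplasmic reticulum by the transporter of which Tap1 is a subunit. Class II molecules, displayed mainly by macrophages, dendritic cells and B cells, present peptides from engulfed material to helper T cells. In the rat the complex is named RT1, with class I genes in clusters on either side of the class II genes, classical on one side and largely non-classical on the other, and complement and inflammatory genes lie between and beyond them. Around an implant, these genes are read as part of the foreign-body response, in which macrophages and lymphocytes gather at the material.

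Of the 146 genes, 70 had a gene symbol in the name table of the study, and the other 76, of which 5 had only a clone name, are given by their Ensembl identifiers. That table named 2007 of the 32552 genes in the files, and the members with a symbol all had low identifier numbers. A missing symbol therefore says nothing of what a gene is. The class I, class II and other lists below hold named members only and may miss genes of each kind. The symbols placed 4 genes in class I (RT1-S3, RT1-CE5, RT1-N3 and RT1-M3-1), 2 in class II (RT1-Ba and RT1-DOb), 3 in antigen processing (Psmb8, Psmb9 and Tap1), 1 in complement (Cfb) and 9 among other immune genes. A further 9 were vessel, matrix, receptor or lipid genes and 42 were housekeeping or other genes. Exons of 52 members overlapped those of another gene, and in 6 members over 50% of the exon bases were shared. The reads of such genes, and of near-identical class I copies, could have been split or lost in counting, and whether counting used the strand is not given in the sources used here.

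The promoters of class I and class II genes share short regulatory letters, so the 250 bases before the annotated start are shown for the 8 named genes on which the results turn. They were taken from RefSeq on the GRCr8 build, in which 52 of the 70 named members had a promoter, and are written 5′ to 3′ along the gene. The capitals mark a TGANG followed by an ATTGG with 12 to 25 bases between them on the gene's strand, an arrangement searched for with these sequences in view, because X2-like and Y boxes of class I and class II promoters are known to be spaced in this way. The first 2 are the class II genes RT1-Ba, at chr20:4576807-4577056 (+ strand), and RT1-DOb, at chr20:4627524-4627773 (- strand).
RT1-Ba: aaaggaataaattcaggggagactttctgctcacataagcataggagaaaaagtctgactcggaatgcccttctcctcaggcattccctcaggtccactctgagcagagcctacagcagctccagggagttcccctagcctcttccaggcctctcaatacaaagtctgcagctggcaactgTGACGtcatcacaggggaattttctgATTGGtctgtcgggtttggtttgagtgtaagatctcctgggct
RT1-DOb: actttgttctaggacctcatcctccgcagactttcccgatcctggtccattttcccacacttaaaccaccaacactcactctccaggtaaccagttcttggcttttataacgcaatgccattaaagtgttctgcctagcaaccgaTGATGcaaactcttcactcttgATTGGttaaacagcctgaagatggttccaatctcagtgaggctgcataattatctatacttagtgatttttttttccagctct
The next 4 are the class I genes RT1-CE5, at chr20:3484091-3484340 (- strand), RT1-M3-1, at chr20:1333367-1333616 (- strand), RT1-N3, at chr20:2666239-2666488 (+ strand), and RT1-S3, at chr20:2675278-2675527 (+ strand).
RT1-CE5: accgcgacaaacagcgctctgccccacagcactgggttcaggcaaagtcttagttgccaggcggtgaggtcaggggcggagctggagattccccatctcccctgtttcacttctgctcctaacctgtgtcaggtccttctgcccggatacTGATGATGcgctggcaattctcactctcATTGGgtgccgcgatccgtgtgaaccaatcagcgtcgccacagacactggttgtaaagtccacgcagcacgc
RT1-M3-1: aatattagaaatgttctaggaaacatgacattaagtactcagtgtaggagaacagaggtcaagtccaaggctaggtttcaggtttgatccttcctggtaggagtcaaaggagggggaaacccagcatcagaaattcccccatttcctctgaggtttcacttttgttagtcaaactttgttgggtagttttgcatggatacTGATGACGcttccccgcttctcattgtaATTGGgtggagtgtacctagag
RT1-N3: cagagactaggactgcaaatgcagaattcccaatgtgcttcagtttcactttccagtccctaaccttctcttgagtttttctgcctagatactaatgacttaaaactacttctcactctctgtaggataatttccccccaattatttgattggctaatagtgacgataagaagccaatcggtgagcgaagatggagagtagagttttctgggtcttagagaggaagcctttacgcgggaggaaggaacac
RT1-S3: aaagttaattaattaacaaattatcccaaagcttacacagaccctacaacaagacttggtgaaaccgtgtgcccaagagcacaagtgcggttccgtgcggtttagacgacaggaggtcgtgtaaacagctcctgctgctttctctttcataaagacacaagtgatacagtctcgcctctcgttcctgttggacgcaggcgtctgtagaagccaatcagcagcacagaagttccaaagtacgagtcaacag
The last 2 are Tap1, at chr20:4668544-4668793 (- strand), and Psmb9, at chr20:4668750-4668999 (+ strand), which are transcribed away from each other from annotated starts 457 bases apart.
Tap1: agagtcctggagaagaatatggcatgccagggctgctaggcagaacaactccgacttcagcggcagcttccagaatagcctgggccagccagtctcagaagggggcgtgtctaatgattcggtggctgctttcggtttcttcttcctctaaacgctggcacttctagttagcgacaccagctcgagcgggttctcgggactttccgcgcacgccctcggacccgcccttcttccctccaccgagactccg
Psmb9: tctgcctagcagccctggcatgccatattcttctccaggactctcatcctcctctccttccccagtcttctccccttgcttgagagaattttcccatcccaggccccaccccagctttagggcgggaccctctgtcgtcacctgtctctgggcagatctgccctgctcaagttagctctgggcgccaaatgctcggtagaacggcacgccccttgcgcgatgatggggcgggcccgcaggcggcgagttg

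The spaced pair stood on the gene's strand in both class II promoters, with 21 bases between the motifs in RT1-Ba and 17 in RT1-DOb. It also stood in the class I promoters of RT1-CE5 and RT1-M3-1, where the TGANG letters occur at 2 overlapping places, 23 and 20 bases from the ATTGG. Neither RT1-N3 nor RT1-S3, nor any of the 3 antigen processing genes, held the pair in this window. Of the other members it occurred in Ager. It stood in none of the 35 promoters of housekeeping and other genes or the 7 of vessel, matrix, receptor and lipid genes. The 52 members had 55 promoters, since Bag6, Nelfe and Slc39a7 have several. Among the same 250 bases of all 33465 RefSeq promoters, 1.45% held the pair on the gene's strand and 2.62% on either strand. The letters ATTGG alone, searched on both strands, occurred in 34% of all promoters and in the 4 class I and 2 class II promoters. GAANNGAA, searched on both strands, was found in 18.4% of all promoters and, of the immune genes with a promoter, in RT1-CE5 and Ubd. Other spacings of the repeated GAA were not searched, so a promoter without this match may still hold an interferon response element. The letters TTCNNNGAA, also searched on both strands, were found in 7.67% of all promoters and, of the immune genes with a promoter, in RT1-M3-1 and Psmb8. A match is a run of letters and not evidence of a bound factor.

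The libraries held 13852126 to 24858976 counts, and every day 14 library was smaller than every day 3 library, so depth and any batch that follows it cannot be told apart from day. Genes of the region took 0.587 to 0.854% of the counts at the adhesive implant on day 3 and 0.371 to 0.718% on day 14. At the non-adhesive implant they took 0.591 to 0.901% on day 3 and 0.311 to 0.816% on day 14. The lowest share was that of non-adhesive replicate 4 on day 14, which stood apart from its group in the marker genes of several cell types. Summed over 10 skeletal muscle genes it had 28000 CPM (counts per 1000000 counts of the library) where the other 3 libraries had 10880 to 12460, over 10 fibroblast genes 3035 against 19800 to 21430, and over 13 leukocyte genes 395 against 690 to 1093. Muscle and fibroblast markers were present in every library, as the labelled tissue would have. Results that rest on replicate 4 are therefore given with and without it.

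Levels are given as CPM after TMM scaling, which adjusts each library total for the composition of its RNA. Differences are log2 fold changes with their standard error from the quasi-likelihood test of edgeR. A gene was called changed when its Benjamini-Hochberg adjusted p over all genes tested was at most 0.05 and its fold change was at least 1 on the log2 scale. Among the named immune genes, the level per kilobase of exon was highest for RT1-S3 at 68.6 CPM per kilobase (SD 40.1 over the 16 libraries), followed by RT1-Ba at 55.6 (SD 43.5) and RT1-CE5 at 52.0 (SD 19.3), and these 3 did not differ beyond their spread. RT1-N3 at 10.0 (SD 4.59) and RT1-M3-1 at 7.25 (SD 3.10) were the lower class I genes, and RT1-DOb, at 1.57 (SD 1.32), was the lowest of the immune genes apart from Cfb. Of the members without a symbol, those with the highest mean CPM were ENSRNOG00000030712 (374 CPM), ENSRNOG00000028505 (359 CPM), ENSRNOG00000061216 (266 CPM), ENSRNOG00000038999 (217 CPM) and ENSRNOG00000032844 (215 CPM). The first and the fourth of these share 32.7% and 32.6% of their exon bases, chiefly with each other, so their counts are uncertain.

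At the adhesive implant, some named immune genes of the region had lower values on day 14 than on day 3 and others higher. The class I genes RT1-S3 and RT1-N3, the peptide transporter subunit Tap1 and the macrophage gene Aif1 were lower on day 14, while the named class II genes RT1-Ba and RT1-DOb had higher values that edgeR did not call. ENSRNOG00000033215, which has no symbol and lies beside RT1-Ba, was called higher and is described below. edgeR called 15 of 146 members (10.3%), against 8.12% of the 14601 genes tested. Of these, 5 were higher on day 14 (3.43% of members, against 4.39% of genes tested) and 10 lower (6.85% of members, against 3.73% of genes tested). DESeq2 called 26 members, against 11.3% of genes. The edgeR count was 6 without replicate 2 of day 3 (3.14% of all genes tested were called), 7 without replicate 1 of day 14 (3.96%), 8 without replicate 3 of day 14 (5.14%) and 7 without replicate 4 of day 14 (4.43%), so the calls over all genes dropped with those of the members.

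RT1-S3 encodes a class I molecule, and its 4 libraries at the adhesive implant had 253, 273, 110 and 211 CPM on day 3 and 64.1, 74.1, 65.2 and 61.5 CPM on day 14. Every day 14 library lay below every day 3 library. RT1-S3 fell 3.19-fold (log2 change -1.68 ± 0.36 (SE), edgeR adjusted p = 0.0106, n = 4 per day), and the call held in each of the 8 fits that left out 1 library. RT1-N3, a second class I gene, had 26.2, 34.0, 17.1 and 27.3 CPM on day 3 and 9.95, 13.3, 9.07 and 7.84 CPM on day 14. These libraries did not overlap either, and RT1-N3 fell 2.60-fold (log2 change -1.38 ± 0.38, edgeR adjusted p = 0.0259). Its call held in 3 of 8 such fits and was lost without replicate 2 or 4 of day 3 or without replicate 1, 3 or 4 of day 14, with edgeR adjusted p from 0.051 to 0.0793. RT1-N3 shares 29.7% of its exon bases with ENSRNOG00000058784 on the opposite strand.

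The other named class I genes did not follow. RT1-CE5 had 94.3, 115, 35.3 and 107 CPM on day 3 and 101, 141, 133 and 77.0 CPM on day 14, with overlapping libraries (log2 change 0.36 ± 0.36, edgeR adjusted p = 0.502). RT1-M3-1, whose mouse relative presents formylated bacterial peptides, had 10.1, 15.6, 6.75 and 16.5 CPM on day 3 and 10.7, 15.99, 10.9 and 9.72 CPM on day 14 (log2 change -0.05 ± 0.36, edgeR adjusted p = 0.944). The exons of RT1-CE5 overlap those of ENSRNOG00000039744 over 35.4% of their length.

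The genes that prepare class I peptides had their highest values at the adhesive implant on day 3. Tap1 had 111, 140, 48.9 and 102 CPM on day 3 and 30.3, 38.0, 31.1 and 27.3 CPM on day 14, again with no overlap. Tap1 fell 3.18-fold (log2 change -1.67 ± 0.45, edgeR adjusted p = 0.0262). The call held in 3 of 8 fits that left out a library, and was lost without replicate 2 or 4 of day 3 or without replicate 1, 3 or 4 of day 14, where the edgeR adjusted p was 0.0501 to 0.0822. Psmb9, an interferon-inducible proteasome subunit, had 67.0, 84.7, 30.8 and 62.0 CPM on day 3 and 23.6, 40.5, 24.5 and 20.1 CPM on day 14, and did not pass (log2 change -1.17 ± 0.44, edgeR adjusted p = 0.0843, DESeq2 adjusted p = 0.0396). Psmb8, another such subunit, had 41.5, 72.0, 38.3 and 65.98 CPM on day 3 and 26.0, 35.5, 21.9 and 24.1 CPM on day 14. Its libraries did not overlap, and its difference of -1.02 ± 0.43 on the log2 scale did not pass (edgeR adjusted p = 0.116).

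Class II went the other way in value. RT1-Ba, the alpha chain of a classical class II molecule, had 16.1, 21.1, 8.71 and 88.9 CPM on day 3 at the adhesive implant and 77.0, 169, 82.4 and 130 CPM on day 14. The days overlapped only through replicate 4 of day 3. The difference was 1.76 ± 0.68 on the log2 scale, or 3.39-fold, with an edgeR adjusted p of 0.0884 and a DESeq2 adjusted p of 0.0328. Without that replicate it was 2.87, and edgeR called it (adjusted p = 0.0147). RT1-DOb, the beta chain of the DO molecule that modulates peptide loading in B cells, had 0.702, 1.38, 0.179 and 1.53 CPM on day 3 and 3.14, 6.90, 2.18 and 4.47 CPM on day 14, with no overlap (log2 change 2.12 ± 0.69, or 4.34-fold, edgeR adjusted p = 0.0505, DESeq2 adjusted p = 0.0114).

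At the non-adhesive implant, both named class II genes again had higher values on day 14, while named class I and antigen processing genes showed no called change. ENSRNOG00000033215 and ENSRNOG00000030431, which have no symbol and follow RT1-Ba along the chromosome, were called higher. edgeR called 6 of 146 members (4.11%), against 9.07% of genes tested, with 4 higher on day 14 (5.32% of genes) and 2 lower (3.75% of genes). DESeq2 called 15 members, against 11.6% of genes. Without replicate 4 of day 14 edgeR called 18 members, 15 higher and 3 lower, with 9.72% of all genes called. It called 10 without replicate 2 of day 3 (11.8% of all genes), 3 without replicate 1 of day 14 (7.7%) and 3 without replicate 3 of day 14 (6.61%).

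RT1-Ba had 42.9, 36.1, 9.70 and 46.3 CPM at the non-adhesive implant on day 3 and 201, 106, 136 and 37.8 CPM on day 14. Replicate 4 of day 14 lay among the day 3 libraries, and the other 3 lay above them. The difference was 1.84 ± 0.68 on the log2 scale, or 3.57-fold (edgeR adjusted p = 0.0734, DESeq2 adjusted p = 0.0242), and without replicate 4 it was 2.07 with an edgeR adjusted p of 0.0399. RT1-DOb had 3.14, 1.10, 0.541 and 1.10 CPM on day 3 and 7.19, 5.12, 6.51 and 0.935 CPM on day 14 (log2 change 1.74 ± 0.66, edgeR adjusted p = 0.0819, DESeq2 adjusted p = 0.0394). It passed in edgeR without replicate 4 of day 14 (log2 change 1.99, adjusted p = 0.0305) and without replicate 1 of day 3 (2.40, adjusted p = 0.0414).

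RT1-S3 had 126, 70.5, 112 and 52.4 CPM at the non-adhesive implant on day 3 and 121, 135, 163 and 48.4 CPM on day 14, and the days overlapped (log2 change 0.38 ± 0.35, edgeR adjusted p = 0.493). The other class I genes gave log2 changes of 0.06 ± 0.36 for RT1-N3, 0.73 ± 0.36 for RT1-M3-1 and 0.79 ± 0.36 for RT1-CE5, none of which passed (edgeR adjusted p from 0.141 to 0.932). Those of Tap1, Psmb9 and Psmb8 were -0.51 ± 0.44, -0.52 ± 0.44 and -0.12 ± 0.42 (edgeR adjusted p from 0.431 to 0.877).

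**Figure D1:**
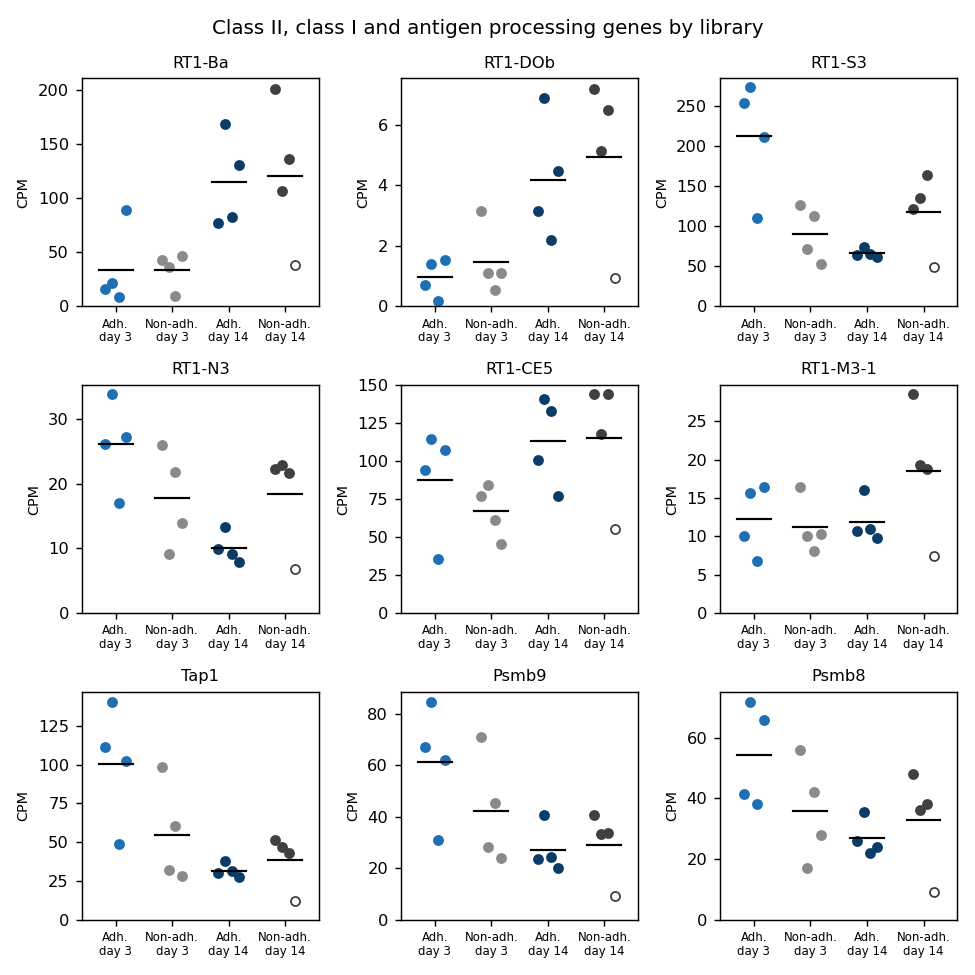
Levels (CPM, linear axis from 0) of 2 class II, 4 class I and 3 antigen processing genes in each library, by implant and day, with the 4 points of a group in replicate order and a bar at their mean. RT1-Ba and RT1-DOb have their highest values on day 14, RT1-S3 and Tap1 at the adhesive implant on day 3, and the open circle is non-adhesive replicate 4 of day 14, which is the lowest of its group in all 9 genes.

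The medians of the lists describe these values without a test. At the adhesive implant, the median log2 change between days was -0.71 for the 4 class I genes, of which 2 were called lower and the others lay at -0.05 and 0.36, -1.17 for the 3 antigen processing genes and 1.94 for the 2 class II genes, where the median of all genes tested was -0.01. At the non-adhesive implant these medians were 0.55, -0.51 and 1.79, against 0.05 for all genes tested. Over all 146 members the median was -0.04 at the adhesive implant and 0.16 at the non-adhesive implant.

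**Figure D2:**
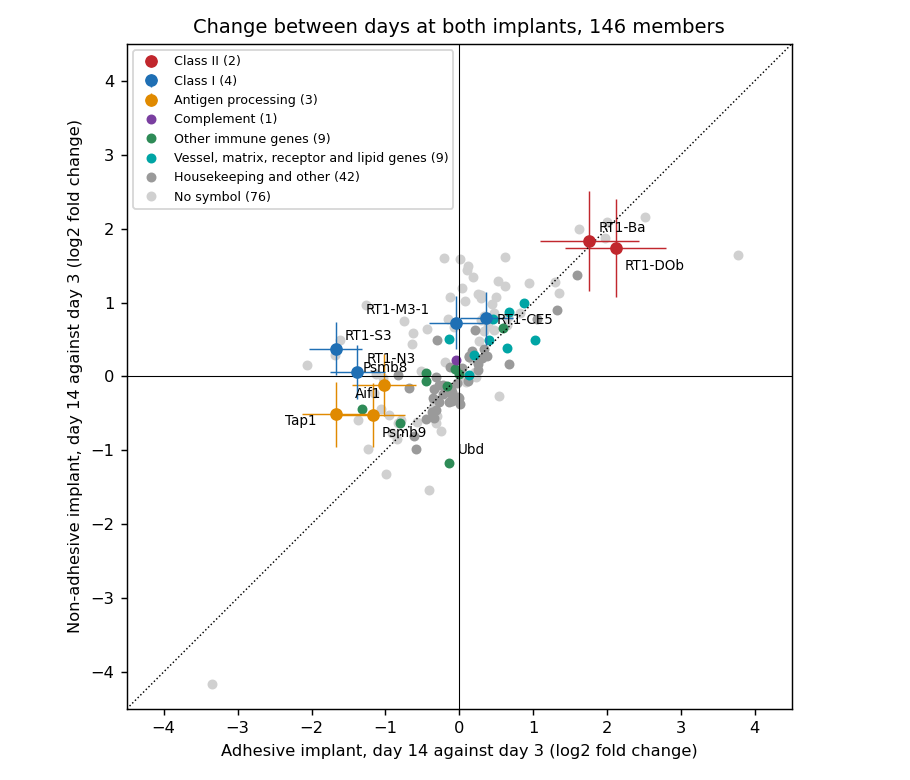
Log2 fold change from day 3 to day 14 at the adhesive implant (horizontal axis) and at the non-adhesive implant (vertical axis) for the 146 genes of the region, coloured by role, with 1 standard error drawn for class I, class II and antigen processing genes and a dotted line where both are equal. The class II genes lie near the dotted line at the upper right, while RT1-S3, RT1-N3 and Tap1 lie to its left, with log2 changes from -1.68 to -1.38 at the adhesive implant.

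The named class II genes were part of a run of neighbours with the same direction. In order along the chromosome, 6 consecutive members from RT1-DOb to ENSRNOG00000032844 had log2 changes of at least 1 between days at both implants. They span bases 4020317 to 4132616 as the count files number them. In all, 10 of the 146 members had such changes. The share of all genes tested that did was not counted, so this number cannot be set against that of other genes. Of the run, edgeR called only ENSRNOG00000033215 at the adhesive implant, and only ENSRNOG00000033215 and ENSRNOG00000030431 at the non-adhesive implant. ENSRNOG00000032708, ENSRNOG00000030431 and ENSRNOG00000033215 complete the run, which was singled out after its values were seen and is described without a test. ENSRNOG00000033215 had 40.8, 34.6, 8.58 and 87.2 CPM at the adhesive implant on day 3 and 132, 417, 217 and 209 CPM on day 14, with no overlap. It rose 5.69-fold (log2 change 2.51 ± 0.64, edgeR adjusted p = 0.0210), a call lost without replicate 2 of day 3 (edgeR adjusted p = 0.0756).

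At the non-adhesive implant, ENSRNOG00000033215 had 89.0, 70.8, 15.4 and 48.5 CPM on day 3 and 336, 260, 306 and 98.7 CPM on day 14. It rose 4.47-fold (log2 change 2.16 ± 0.64, edgeR adjusted p = 0.0316), a call that held in 3 of 8 fits without 1 library. It was lost without replicate 3 or 4 of day 3 or without replicate 1, 2 or 3 of day 14, with edgeR adjusted p from 0.0589 to 0.0895. ENSRNOG00000032844, the most abundant gene of the run, had 57.8, 57.1, 17.0 and 209 CPM on day 3 and 201, 541, 260 and 336 CPM on day 14 at the adhesive implant. Its log2 change was 1.97 there (edgeR adjusted p = 0.0630, DESeq2 adjusted p = 0.0151) and 1.87 at the non-adhesive implant (edgeR adjusted p = 0.0699, DESeq2 adjusted p = 0.0208).

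**Figure D3:**
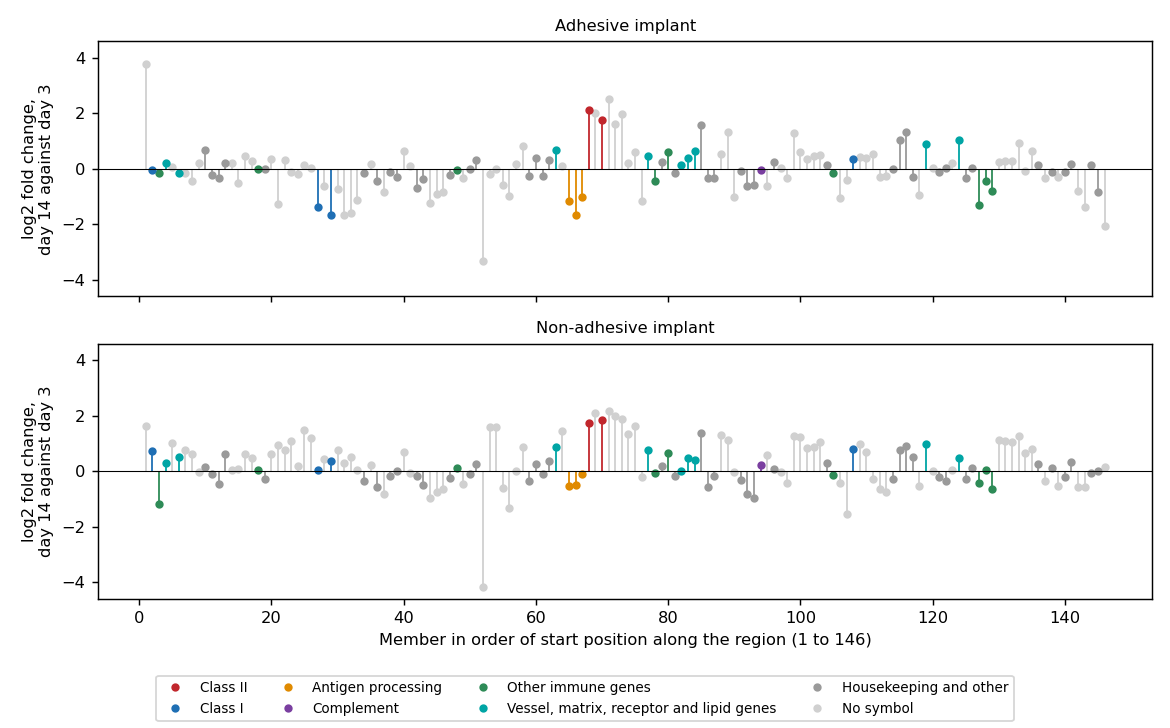
Log2 fold change from day 3 to day 14 for the 146 members in order of their start position (order number, not distance), at the adhesive implant (top) and the non-adhesive implant (bottom), coloured by role. Members 68 to 73, which include both named class II genes, stand at log2 changes of at least 1 in both panels, directly beside the 3 antigen processing genes, whose changes are below 0 in both.

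Genes that mark myeloid cells lay in the same region. Aif1, the macrophage and microglia protein Iba1, had 62.6, 117, 73.5 and 109 CPM at the adhesive implant on day 3 and 22.8, 57.6, 35.8 and 29.2 CPM on day 14, with every day 14 library below every day 3 library. Aif1 fell 2.49-fold (log2 change -1.32 ± 0.39, edgeR adjusted p = 0.0357). The call held in 2 of 8 fits without 1 library, and was lost without replicate 2, 3 or 4 of day 3 or without replicate 1, 3 or 4 of day 14, with edgeR adjusted p from 0.0518 to 0.101. At the non-adhesive implant Aif1 had 75.5, 59.3, 90.6 and 78.9 CPM on day 3 and 77.1, 74.2, 55.3 and 16.9 CPM on day 14, and did not pass (log2 change -0.44 ± 0.38, edgeR adjusted p = 0.450).

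Lst1, a leukocyte membrane protein, had 6.48 to 17.8 CPM at the adhesive implant on day 3 and 3.25 to 10.4 CPM on day 14, and did not pass at the adhesive implant (log2 change -0.80 ± 0.46, edgeR adjusted p = 0.239) or the non-adhesive implant (-0.63 ± 0.45, 0.355). Ubd had 4.91 to 14.7 CPM at the adhesive implant on day 3 and 3.79 to 13.6 CPM on day 14 (log2 change -0.15 ± 0.79), and 0.478 to 14.6 then 1.14 to 2.94 CPM at the non-adhesive implant (-1.17 ± 0.84, edgeR adjusted p = 0.350). It spread widely on day 3 and did not pass at either implant. Ncr3, the activating natural killer receptor NKp30, stayed between 0.935 and 4.75 CPM in every library (log2 changes -0.46 ± 0.40 and 0.04 ± 0.39, neither of which passed). The other 5 immune genes were Gpsm3, a regulator of G-protein signalling, Nfkbil1, an inhibitor-like protein of the NF-kB family, Ier3, an immediate early stress gene, Trim39, a ubiquitin ligase, and Ager, the receptor for advanced glycation end products. Their log2 changes between days ran from -0.45 (Gpsm3) to 0.59 (Ager) at the adhesive implant and from -0.13 (Nfkbil1) to 0.66 (Ager) at the non-adhesive implant, and none passed. Ager had 2.37 to 2.73 CPM at the adhesive implant on day 3 and 3.49 to 4.45 CPM on day 14 with no overlap (edgeR adjusted p = 0.0906).

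Cfb, complement factor B, could not be measured well. Its 4646 exon bases carried only 204 counts over the 16 libraries, and 94% of them are shared with other genes, among them ENSRNOG00000051235, which lies on the same strand and carried 50045 counts. The level of Cfb was 0.0784 to 1.04 CPM over the 16 libraries, and its log2 change was -0.05 ± 0.60 at the adhesive implant and 0.23 ± 0.58 at the non-adhesive implant.

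Among the 9 vessel, matrix, receptor and lipid genes, 8 had positive log2 changes between days at the adhesive implant and 9 at the non-adhesive implant. Their medians were 0.45 and 0.49, where those of all genes tested were -0.01 and 0.05. The share of all genes with positive changes was not counted. edgeR called 1 of the 9 at the adhesive implant and 0 at the non-adhesive implant. Apom, a carrier of sphingosine 1-phosphate on lipoproteins, was called: it had 0.702, 0.775, 0.983 and 0.966 CPM on day 3 and 1.95, 1.82, 1.48 and 1.80 CPM on day 14 at the adhesive implant (log2 change 1.03 ± 0.28, edgeR adjusted p = 0.0241). Its call was lost in 5 of 8 fits, without replicate 1, 2 or 4 of day 3 or without replicate 1 or 4 of day 14, where the fold change ran from 0.90 to 1.06 on the log2 scale. Of the 42 housekeeping and other genes, 2 were called at the adhesive implant, both higher on day 14, and their median change was -0.11. Sapcd1 rose there from 1.33 to 2.65 CPM on day 3 to 3.94 to 6.89 CPM on day 14 (log2 change 1.33 ± 0.30, edgeR adjusted p = 0.0130), and kept its call in all 8 fits without 1 library.

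Prrt1, a proline-rich membrane protein, was called at both implants. It had 2.97, 2.80, 2.41 and 6.73 CPM on day 3 and 5.84, 14.1, 17.4 and 7.92 CPM on day 14 at the adhesive implant (log2 change 1.60 ± 0.45, edgeR adjusted p = 0.0310), and 2.74, 7.36, 4.68 and 6.61 CPM then 16.7, 15.2, 17.4 and 5.82 CPM at the non-adhesive implant (1.38 ± 0.45, edgeR adjusted p = 0.0460). The adhesive call was lost without replicate 1, 2 or 3 of day 3 or without replicate 2 or 3 of day 14. The non-adhesive call was lost without replicate 1, 3 or 4 of day 3 or without replicate 1, 2 or 3 of day 14, with edgeR adjusted p up to 0.104 and 0.129 at the 2 implants.

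Members without a symbol made up 8 of the 15 calls at the adhesive implant and 5 of the 6 at the non-adhesive implant. ENSRNOG00000045924 had 112, 57.6, 30.6 and 43.3 CPM on day 3 and 19.5, 17.4, 22.7 and 16.5 CPM on day 14 at the adhesive implant. It fell by 1.68 on the log2 scale (SE 0.40, edgeR adjusted p = 0.0154), a call kept in all 8 fits without 1 library, and had 41.4, 32.3, 27.9 and 13.0 then 29.9, 42.8, 46.3 and 20.4 CPM at the non-adhesive implant (log2 change 0.28, edgeR adjusted p = 0.650). ENSRNOG00000028841 fell at both implants from low levels: its raw counts were 32, 55, 30 and 27 on day 3 and 1, 3, 2 and 1 on day 14 at the adhesive implant, and 79, 48, 139 and 15 then 0, 6, 1 and 1 at the non-adhesive implant. Its edgeR adjusted p was 0.0154 and 0.00379, and the adhesive call was lost without replicate 4 of day 14 (0.0513).

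The other calls among members without a symbol were smaller or rested on fewer counts. At the adhesive implant ENSRNOG00000000478 had raw counts of 57, 87, 20 and 85 on day 3 and 2, 14, 10 and 4 on day 14 (edgeR adjusted p = 0.0424), and kept its call in 2 of 8 fits. ENSRNOG00000029500 had 52.1, 64.6, 36.9 and 53.1 CPM on day 3 and 17.6, 26.0, 21.5 and 14.5 CPM on day 14, with no overlap (log2 change -1.38 ± 0.31, edgeR adjusted p = 0.0115), and kept its call in all 8. At the non-adhesive implant ENSRNOG00000058288 fell (log2 change -1.32 ± 0.34, edgeR adjusted p = 0.0173) and ENSRNOG00000052039 rose (1.29 ± 0.31, edgeR adjusted p = 0.0128), both without overlap between days and in all 8 fits. Over the 76 members without a symbol, the median log2 change was 0.03 at the adhesive implant, with 2 called higher and 6 lower, and 0.60 at the non-adhesive implant, with 3 called higher and 2 lower.

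Genes outside the region moved beside these. Of 12 interferon-stimulated genes tested from a list of 14, 7 were called lower on day 14 at the adhesive implant (Mx1, Mx2, Oas1a, Oasl, Ifi47, Lgals3bp and Socs1) and none at the non-adhesive implant. Their summed level was 787 to 1670 CPM at the adhesive implant on day 3 and 249 to 436 CPM on day 14, and 306 to 856 then 175 to 607 CPM at the non-adhesive implant. Ciita, the master activator of class II genes, had 6.32, 7.92, 2.10 and 17.1 CPM on day 3 and 7.46, 19.3, 7.85 and 13.2 CPM on day 14 at the adhesive implant, and did not pass (log2 change 0.51 ± 0.67, edgeR adjusted p = 0.628). Of the 18 genes in the antigen presentation list, 4 had a name in the study's table, so the rest could not be looked up. Besides Ciita these were Canx, Calr and Mr1, and none was called at either implant. Canx and Calr were lower on day 14 at the adhesive implant with an edgeR adjusted p of at most 0.05, under the fold limit. Canx had 342 to 468 CPM there on day 3 and 202 to 284 CPM on day 14, and Calr 567 to 824 then 320 to 494 CPM. At the non-adhesive implant 1 of the 4 genes was lower in this way.

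Of the summed markers of cell types, only those of skeletal muscle did not overlap between days at either implant. The B and plasma cell sums did not overlap at the adhesive implant, and all other sums overlapped at both. Summed over 10 skeletal muscle genes, the adhesive implant had 2713 to 6469 CPM on day 3 and 15490 to 27000 CPM on day 14, and the non-adhesive implant 2489 to 7959 then 10880 to 28000 CPM. Over 6 monocyte and macrophage genes the adhesive implant had 176 to 348 CPM on day 3 and 73.2 to 201 CPM on day 14, and the non-adhesive implant 141 to 318 then 48.7 to 232 CPM. The 13 leukocyte genes summed to 604 to 1132 then 617 to 934 CPM at the adhesive implant and to 472 to 913 then 395 to 1093 CPM at the non-adhesive implant. The 8 T and NK cell genes summed to 85.9 to 162 then 78.5 to 146 CPM, and to 63.9 to 145 then 58.9 to 205 CPM. The 4 B and plasma cell genes summed to 4.25 to 11.9 then 12.1 to 24.9 CPM, and to 5.41 to 34.5 then 6.02 to 53.0 CPM. The 10 fibroblast genes summed to 3778 to 11250 then 2482 to 13560 CPM, and to 5973 to 16220 then 3035 to 21430 CPM. The 7 endothelium genes summed to 132.6 to 162.5 then 102.1 to 188.5 CPM, and to 84.64 to 205.2 then 128 to 199.8 CPM. In edgeR, 6 of 10 muscle genes were called higher on day 14 at the adhesive implant and 5 at the non-adhesive implant, while 1 of 6 monocyte and macrophage genes (Tlr7) was called lower at the adhesive implant and none of the 13 leukocyte genes at either. Of the 4 B and plasma cell genes, Jchain, the joining chain of secreted antibodies, was called higher on day 14 at both implants (log2 change 2.37 with edgeR adjusted p = 0.0494, and 3.87 with 0.00646) and Tnfrsf13b lower at the non-adhesive implant. Of the 8 T and NK cell genes, Cd244 was called lower at the adhesive implant and Cd247 higher at the non-adhesive implant. Of the 8 genes listed for monocytes and macrophages, 6 had a name in the study's table, and the rest could not be looked up. No gene found for these lists was at 0 in any group. The part of these shifts in the results for class I, class II and antigen processing genes was not tested.

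Between the implants on day 3, the class I and antigen processing genes had higher values at the adhesive implant, but no member passed. edgeR called 0 of 143 members tested and 0% of the 14223 genes, with 8 members (5.59%) and 7.19% of genes at an unadjusted p under 0.05, and DESeq2 called 0 members and 0.485% of genes. RT1-S3, with 253, 273, 110 and 211 CPM at the adhesive implant and 126, 70.5, 112 and 52.4 CPM at the non-adhesive implant, had the lowest p of the region. Its difference was 1.23 ± 0.36 on the log2 scale (edgeR adjusted p = 0.596). The 4 class I differences were all positive, with a median of 0.48, as were the 3 antigen processing differences, with a median of 0.61, where the median of all genes tested was -0.01. The other members with the lowest p were Rpp21 (-0.37), ENSRNOG00000048725 (-0.43), Ddah2 (-0.76) and ENSRNOG00000058784 (0.92 on the log2 scale), with edgeR adjusted p from 0.631 to 0.656. RT1-Ba and RT1-DOb differed by 0.04 ± 0.73 and -0.63 ± 0.69.

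The marker sums beside this comparison overlapped between implants. The interferon-stimulated list had 787 to 1670 CPM at the adhesive implant and 306 to 856 CPM at the non-adhesive implant on day 3, the leukocyte list 604 to 1132 and 472 to 913 CPM, and the fibroblast list 3778 to 11250 and 5973 to 16220 CPM. Their part in the values of the class I genes was not tested.

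On day 14 the class I and antigen processing genes had lower values at the adhesive implant, and again no member passed in edgeR, which called 0 of 141 members and 0.266% of the 13557 genes tested. At an unadjusted p under 0.05 there were 15 members (10.6%), against 15.9% of genes tested. DESeq2 called 2 members, Ubd and ENSRNOG00000050215, and 3.5% of genes. Without replicate 4 of the non-adhesive group, edgeR called 13 of 144 members (9.03%), against 8.32% of genes, with 2 higher at the adhesive implant and 11 lower. The 2 were Ubd and Vwa7, a von Willebrand factor A domain protein named after its values were seen. The 11 included RT1-S3, RT1-N3, Ddah2 and 8 members without a symbol.

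RT1-S3 had 64.1, 74.1, 65.2 and 61.5 CPM at the adhesive implant on day 14 and 121, 135, 163 and 48.4 CPM at the non-adhesive implant. All adhesive libraries lay below the first 3 non-adhesive libraries and above replicate 4. Its difference was -0.82 ± 0.32 on the log2 scale with all libraries (edgeR adjusted p = 0.260) and -1.09 ± 0.13 without replicate 4 (edgeR adjusted p = 0.0041). RT1-N3 had 9.95, 13.3, 9.07 and 7.84 CPM at the adhesive implant and 22.4, 22.9, 21.7 and 6.86 CPM at the non-adhesive implant, a difference of -0.88 ± 0.36 (edgeR adjusted p = 0.282) that was -1.17 ± 0.18 without replicate 4 (edgeR adjusted p = 0.00842). RT1-M3-1 differed by -0.65 ± 0.37 with all libraries and by -0.92 ± 0.22 without replicate 4, under the fold limit, and RT1-CE5 by -0.03 ± 0.32 with all libraries and by -0.28 ± 0.21 without it.

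Class II genes had no called difference between implants on day 14. RT1-Ba had 77.0 to 169 CPM at the adhesive implant and 37.8 to 201 CPM at the non-adhesive implant (log2 difference -0.07 ± 0.47, edgeR adjusted p = 0.963), and RT1-DOb differed by -0.25 ± 0.57 (edgeR adjusted p = 0.877). Without non-adhesive replicate 4 the differences were -0.38 ± 0.32 for RT1-Ba and -0.59 ± 0.36 for RT1-DOb, and neither passed. Tap1, Psmb9 and Psmb8 differed by -0.28 ± 0.38, -0.11 ± 0.42 and -0.30 ± 0.43 with all libraries, and none passed. Without replicate 4 they differed by -0.59 ± 0.13 (edgeR adjusted p = 0.0232), -0.41 ± 0.23 (0.215) and -0.62 ± 0.18 (0.0479), all under the fold limit. The standard errors are large, so a p over the threshold does not show that the implants were alike.

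Ubd, the ubiquitin-like protein FAT10 that interferon and tumour necrosis factor induce, was the member with the lowest p on day 14. It had 3.79, 13.6, 10.8 and 5.80 CPM at the adhesive implant and 1.68, 2.94, 2.76 and 1.14 CPM at the non-adhesive implant, with no overlap, and differed by 1.99 ± 0.46 on the log2 scale (edgeR adjusted p = 0.110, DESeq2 adjusted p = 0.00194). Next came ENSRNOG00000050215, ENSRNOG00000045924, ENSRNOG00000042905 and ENSRNOG00000026762, with log2 differences of -2.23, -0.88, -0.61 and -1.57 and edgeR adjusted p from 0.151 to 0.211. The fibroblast list had 2482 to 13560 CPM at the adhesive implant and 3035 to 21430 CPM at the non-adhesive implant on day 14, and the T and NK cell list 78.5 to 146 and 58.9 to 205 CPM. Their part in these differences was not tested.

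**Figure D4:**
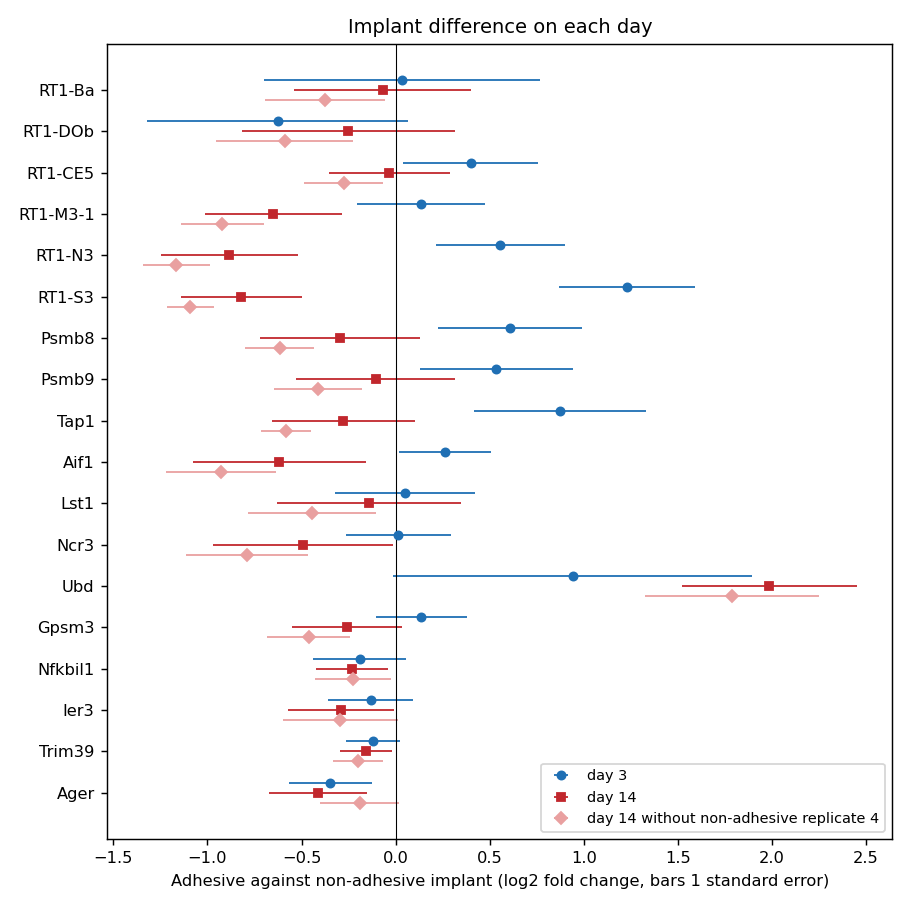
Log2 fold change of the adhesive against the non-adhesive implant for 18 immune genes of the region on day 3 (circles), on day 14 (squares) and on day 14 without non-adhesive replicate 4 (diamonds), with bars of 1 standard error. RT1-S3 lies at 1.23 on day 3 and at -0.82 on day 14, Ubd lies above 0 in each of the 3 sets, and RT1-Ba lies within 1 standard error of 0 with all libraries on both days.

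The change of the implant difference between the days was then tested in 1 fit of the 16 libraries. edgeR called 0 of 146 members, against 0.00685% of genes (1 of 14601), and 12 members (8.22%) had an unadjusted p under 0.05, against 4.74% of genes. DESeq2 called 1 member, RT1-S3, and 0.171% of genes. RT1-S3 had the lowest p of the region, with a change of -2.05 ± 0.51 on the log2 scale from a difference of 1.23 on day 3 to -0.82 on day 14 (edgeR adjusted p = 0.667, DESeq2 adjusted p = 0.0495). It was followed by ENSRNOG00000045924 (-1.96 ± 0.56), ENSRNOG00000042905 (-1.50 ± 0.51), RT1-N3 (-1.44 ± 0.52) and Daxx, a chaperone of histone H3.3, at -0.85 ± 0.31, with edgeR adjusted p from 0.738 to 0.916. The medians were -1.11 for class I, -0.90 for antigen processing and 0.15 for class II, against -0.01 for all genes tested.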

How the data were processed

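Raw read counts per gene were deposited for 16 libraries, with gene coordinates beside them. Per the study's methods and the submitters' processing notes, the authors used bcl2fastq 2.17 for demultiplexing, FastQC for quality control, Cutadapt for trimming, STAR for alignment and featureCounts for the counts. The methods and the labels name different genome builds, and the coordinates of the counts matched neither with certainty, so positions are as the count files give them and were set against no other build. No column of the authors' own comparisons was used.

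Groups came from the sample labels. Genes were tested in R 4.3.3 with the quasi-likelihood test of edgeR 4.0.16 after TMM scaling and edgeR's filter on low counts. The fits of implants on 1 day used the 8 libraries of that day, and the fits of days and of the change between them used the 16 libraries. Benjamini-Hochberg adjustment covered every gene tested. Calls were made at the limits of the study, 0.05 for the adjusted p and 1 for the size of the log2 change. DESeq2 1.42.0, limma 3.58.1 (voom), DESeq2's size factors in edgeR, no filter, no fold limit, a replicate block and leaving out each library were the alternatives. Scripts were tested on simulated counts. Figures were drawn in matplotlib 3.10.9 from tables made in Python 3.11.15.

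The members and gene lists were chosen with earlier results of these data known. Named with values were the class I, class II, antigen processing, complement and other immune genes, and of the remaining lists up to 5 called members per comparison with the largest fold change and a mean of at least 1 CPM, up to 5 of the lowest p where fewer than 3 were called, and up to 5 members without a symbol with the highest mean. The labels also name days other than those of these libraries, and those were not analysed here. Depth was 13852126 to 24858976 counts per library.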

Additional observations from a re-analysis of the deposited data

Results flagged for a closer look

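In 76 groups of 4 libraries (19 immune genes in each of 4 groups), a library was marked where its gap to the nearest other library, as a share of the range of the group, passed Dixon's critical value for 4 samples. This marked 2 groups, where chance marks about 1 in 20. RT1-N3 had its lowest value at the non-adhesive implant on day 14 in replicate 4, at 6.855 CPM, where the other 3 libraries had 21.7 to 22.9 CPM and the gap was 0.925 of the range. RT1-Ba had its highest value at the adhesive implant on day 3 in replicate 4, at 88.93 CPM, where the other 3 libraries had 8.71 to 21.1 CPM and the gap was 0.845 of the range.

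The difference of RT1-S3 between implants changed from day 3 to day 14 in DESeq2, by -2.029 on the log2 scale with an adjusted p of 0.0495. The edgeR value was -2.05 with an adjusted p of 0.667.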

How the results depend on the processing

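Between implants on day 14, the count of members called was 0 in edgeR, 2 in DESeq2 and 0 to 13 when 1 library was left out, with 13 only without non-adhesive replicate 4. DESeq2 without that library, an alternative chosen after seeing the data, called 15 of 144 members and 1364 of 13832 genes. Between days at the adhesive implant the count was 15 in edgeR, 26 in DESeq2 and 6 to 17 when 1 library was left out, lowest without replicate 2 of day 3. Between days at the non-adhesive implant it was 6 in edgeR, 15 in DESeq2 and 18 with no fold limit, where 2561 of 14601 genes were called. It was 3 with only the 8 libraries of that implant, all 3 lower on day 14, where 575 of 14160 genes were called. Leaving out 1 library gave 3 to 18, with 18 without replicate 4 of day 14. For the change of the implant difference the count was 0 in edgeR and 1 in DESeq2. The causes were not tested beyond the libraries left out.

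With a replicate block the counts were 0 on day 3, 0 on day 14, 15 between days at the adhesive implant (9 higher and 6 lower, against 5 and 10 without it), 10 at the non-adhesive implant and 0 for the change. Over all 14601 genes tested between days, the block called 656 at the adhesive implant and 827 at the non-adhesive implant. Under it RT1-N3, Tap1 and Aif1 were not called between days at the adhesive implant and RT1-Ba was. Libraries with the same number did not deviate together throughout (correlations of -0.384, -0.413, 0.099 and 0.342 on day 3 and -0.456, 0.559, 0.29 and 0.243 on day 14), so the numbers were not taken as pairs.

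For the 19 immune genes under the settings other than leaving out a library, 527 values kept their side of the threshold, 12 passed it newly, 3 lost it, 3 of Ubd moved while staying uncalled, and 0 reversed. Leaving out 1 library at a time lost the call in 16 of 32 fits of the 4 immune genes called with all libraries, and gave a call in 7 of 878 fits where the same comparison of a gene was not called with all libraries. With only the 8 libraries of the adhesive implant, RT1-DOb, Psmb8 and Psmb9 were called between days, and with limma-voom RT1-Ba was. Low counts limit RT1-DOb (4 to 124 per library) and Cfb (1 to 28), and overlapping exons limit Cfb, RT1-CE5 and RT1-N3.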
